A study of Mus musculus with 4 samples.

Results

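The 9 genes described here encode or assist the MHC class II presentation route, and they are 9 of the 18364 genes in the table. They were chosen by name, and all 9 were present: *H2-Aa*, *H2-Ab1*, *H2-Eb1*, *H2-DMa*, *H2-DMb1*, *Cd74*, *Ciita*, *Ifi30* and *Cd86*. Gene expression was measured by RNA-seq in macrophages that live in the peritoneal cavity, known as large peritoneal macrophages (LPMs), of C57BL/6 mice at 8 weeks of age. The 2 control libraries are labelled wild type (WT), which the study's methods give as *Rxra* fl/fl without Cre. The 2 libraries labelled Rxra-KO came from LysM-Cre+ *Rxra* fl/fl mice, in which Cre is made from the *Lyz2* (LysM) locus of myeloid cells and deletes the nuclear receptor RXRα there. Cells of both groups were sorted as F4/80+ CD102+ and negative for surface MHC class II, so the transcripts below were read in cells from which the class II-bearing fraction had been gated out. How many mice gave a library is not given in the sources used here, so the spread between these libraries may be technical. The *p*-values of the main fit rest mostly on such spread pooled over all genes, and little on that of the single gene.

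MHC class II molecules are pairs of an α and a β chain that display peptides from endocytosed material to CD4+ T cells. New pairs travel with the invariant chain, CD74, to endosomes, where proteases trim the chain to a short fragment (CLIP) and the DM molecule swaps that fragment for peptide. The master regulator CIITA has no DNA contact of its own and acts through factors bound to the promoters of these genes, and interferon-γ induces it, with IRF1 among the factors involved. LPMs are known for little surface class II, whereas small peritoneal macrophages (SPMs), which derive from monocytes, are known for much of it.

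Libraries held between 629030 and 1047021 recovered reads, and replicate 2 was the deeper library in both groups. Values are normalised read counts, in which a single read was worth between 0.993 and 1.51, and a gene with 3 reads, the floor used here, stood at a deposited value between 3.48 and 5.30, since the table adds 0.5 read. The targeted gene *Rxra* stood at 31.0 and 30.9 in WT replicates 1 and 2 and at 50.4 and 77.0 in the libraries labelled Rxra-KO, so its total transcript level was not lower there (limma adjusted *p* = 0.183). The table sums reads over the whole gene and does not show the deleted stretch alone, so Rxra-KO below names the label of a library. *Lyz2*, the Cre locus, stood at 14263 and 11591 in WT and at 6386 and 6230 in Rxra-KO (log2 fold change -1.03, limma adjusted *p* = 0.00163), a call that was lost without either WT library. *Icam2*, which encodes the gate marker CD102, and *Emr1*, which encodes F4/80, were present in every library, and both were called lower in Rxra-KO.

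Of the 9 genes, 1 was called higher in Rxra-KO, the costimulatory ligand gene *Cd86*, and 1 was called lower, the class II β chain gene *H2-Ab1*. A call required an adjusted *p* under 0.05 with limma over all genes, and a log2 fold change of 0.6 or more in either direction. Over all genes of the table, 2.29% were called, 1.32% higher and 0.969% lower. The values of WT and Rxra-KO did not overlap for 1 of the 9 genes, *Cd86*, against 38.1% of all genes. The peptide-presenting chains *H2-Aa*, *H2-Ab1* and *H2-Eb1*, named the class II chains below, and *Cd74* differed more between the 2 WT libraries than between the groups, and *H2-Ab1* was called although its groups overlapped. The median log2 fold change of the 9 genes was -0.40, and that of all genes was 0.02.

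**Figure D1:**
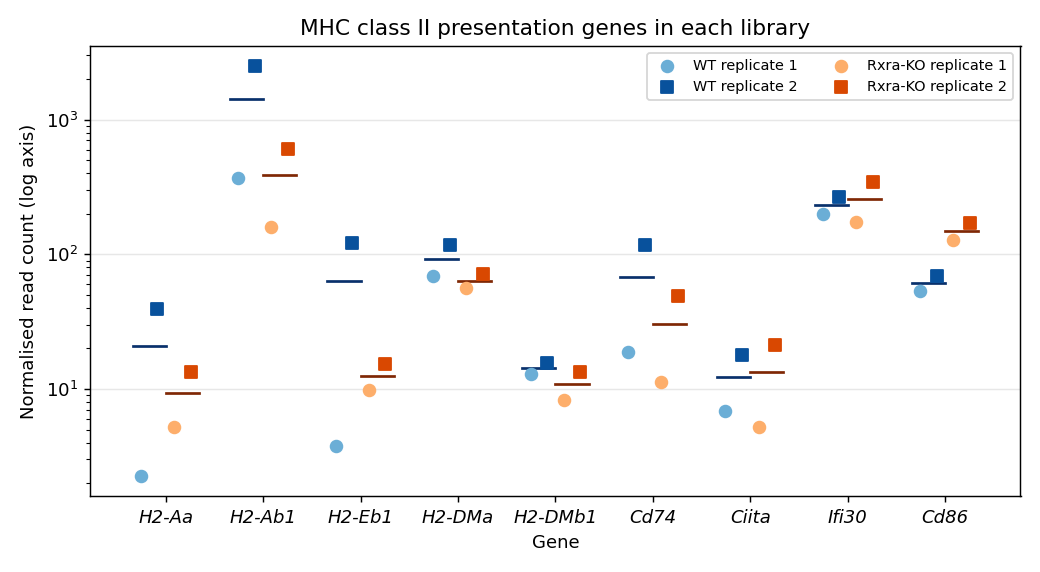
Normalised read count (log axis) of each of the 9 genes in the 4 libraries, with points for single libraries and lines for group means. WT replicate 2 (dark blue squares) is the highest library for 6 of the 9 genes, and *Cd86* is the gene whose 2 groups do not overlap.

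*H2-Ab1* encodes the β chain of I-A, the class II molecule that C57BL/6 mice display. Its normalised read count was 366 and 2484 in WT and 160 and 610 in Rxra-KO, from 241, 2289, 106 and 614 reads. Replicate 2 of each group was the higher library, and the lower WT library lay between the 2 Rxra-KO libraries. The means were 1425 ± 1498 over the WT libraries and 385 ± 318 over the Rxra-KO libraries (SD, n = 2). For *H2-Ab1* the log2 fold change of Rxra-KO over WT was -1.60 ± 0.27 (SE, limma adjusted *p* = 2.40e-06). Leaving out WT replicate 2 brought it to -0.22 (limma adjusted *p* = 0.921), and leaving out Rxra-KO replicate 1 brought it to -0.64 (limma adjusted *p* = 0.260), so that the call rested on those libraries. The call was also lost with robust variance estimation in limma (adjusted *p* = 0.894), with limma without a mean-variance trend (adjusted *p* = 0.746) and with DESeq2 (adjusted *p* = 0.9998, log2 fold change -1.92).

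*H2-Aa*, the α chain that pairs with it, was close to the floor in 2 libraries. Its value was 2.27 and 39.6 in WT and 5.27 and 13.4 in Rxra-KO, which stand for 1, 36, 3 and 13 reads. WT held both the lowest and the highest library. For *H2-Aa* the log2 fold change was -0.28 ± 0.69 (SE, limma adjusted *p* = 0.968), and it ranged from -2.09 to 1.54 as single libraries were left out.

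*H2-Eb1* encodes the β chain of I-E. C57BL/6 mice are known to lack I-E at the cell surface, because the α chain gene carries a promoter deletion. Its value was 3.79 and 122 in WT and 9.79 and 15.4 in Rxra-KO, from 2, 112, 6 and 15 reads. Both Rxra-KO libraries lay between the WT libraries. For *H2-Eb1* the log2 fold change was -0.87 ± 0.57 (SE, limma adjusted *p* = 0.685). It became -3.21 without WT replicate 1 (limma adjusted *p* = 1.23e-07) and 1.47 without WT replicate 2, so its direction was set by which WT library was kept. With edgeR on the recovered reads it was called lower, at -2.38 (adjusted *p* = 9.55e-06).

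*Cd74*, the invariant chain, had a value of 18.9 and 118 in WT and of 11.3 and 49.2 in Rxra-KO, from 12, 108, 7 and 49 reads. The order of the libraries was that of *H2-Ab1*, with WT replicate 2 highest and Rxra-KO replicate 1 lowest. For *Cd74* the log2 fold change was -0.97 ± 0.43 (SE, limma adjusted *p* = 0.348). It ranged from -2.26 without WT replicate 1 (limma adjusted *p* = 7.65e-05) to 0.32 without WT replicate 2.

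Promoters of the class II chains are known for an X box, bound by the RFX complex, and a Y box, a reversed CCAAT bound by NF-Y, at a fixed distance, and CIITA is recruited to the factors on both. Sequence from 250 bases before the transcription start to 50 bases from it was taken from a table of RefSeq promoters (GRCm38.p6), in which 5 of the 9 genes were matched: *H2-Aa*, *H2-Eb1*, *H2-DMa*, *H2-DMb1* and *Ifi30*. The 4 shown are those of a chain with few reads, of the chain with the widest gap between WT libraries, of a DM subunit and, for contrast, of a gene outside the class II chains. Capitals mark matches on either strand to CCAAT (Y box), to AGGTCA (the hexamer that RXR and its partners are known to bind) and to an X box-like pattern of AG, 2 bases of any kind, AC, 3 bases of any kind and TG, where ATTGG and TGACCT are the reversed forms. These patterns were chosen with the sequences in view.
H2-Aa, chr17:34287774-34288073, minus strand: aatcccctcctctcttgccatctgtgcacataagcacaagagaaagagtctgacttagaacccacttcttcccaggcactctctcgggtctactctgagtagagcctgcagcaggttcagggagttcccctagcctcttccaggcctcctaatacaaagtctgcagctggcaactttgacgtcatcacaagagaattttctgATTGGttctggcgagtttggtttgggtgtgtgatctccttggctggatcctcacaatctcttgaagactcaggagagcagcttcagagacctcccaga
H2-Eb1, chr17:34305617-34305916, plus strand: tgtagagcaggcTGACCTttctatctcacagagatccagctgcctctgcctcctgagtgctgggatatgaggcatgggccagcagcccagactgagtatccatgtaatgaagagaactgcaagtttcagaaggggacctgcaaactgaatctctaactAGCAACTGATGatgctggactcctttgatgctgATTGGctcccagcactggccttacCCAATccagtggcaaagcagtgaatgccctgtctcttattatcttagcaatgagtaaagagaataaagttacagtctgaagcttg
H2-DMb1, chr17:34152941-34153240, plus strand: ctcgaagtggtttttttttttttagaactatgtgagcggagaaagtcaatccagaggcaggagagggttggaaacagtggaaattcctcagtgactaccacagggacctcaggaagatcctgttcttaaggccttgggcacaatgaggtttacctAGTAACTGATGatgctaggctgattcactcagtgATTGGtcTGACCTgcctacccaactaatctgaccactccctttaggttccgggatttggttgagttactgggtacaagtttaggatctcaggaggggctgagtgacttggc
Ifi30, chr8:70766614-70766913, minus strand: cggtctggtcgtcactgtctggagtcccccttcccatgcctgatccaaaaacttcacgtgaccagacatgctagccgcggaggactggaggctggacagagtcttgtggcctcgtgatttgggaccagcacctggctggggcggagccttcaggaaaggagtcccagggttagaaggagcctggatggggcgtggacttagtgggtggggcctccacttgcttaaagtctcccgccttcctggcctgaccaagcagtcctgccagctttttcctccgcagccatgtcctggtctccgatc

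An X box-like match followed by a reversed CCAAT lay upstream of *H2-Eb1* and *H2-DMb1*, with first bases 33 and 34 bases apart and the X box-like match starting 92 and 95 bases before the start. Of all 32851 promoter windows, 14.8% held an X box-like match, 37.4% a CCAAT and 16.3% an AGGTCA on either strand, and 51 windows, or 0.155%, held the first followed by the reversed CCAAT at 28 to 38 bases. Of the further chain genes searched, *H2-Eb2* and *H2-Ob* also held that arrangement, *H2-Oa* held both patterns at another distance and *H2-DMb2* held the reversed CCAAT alone. *H2-DMa* had 2 windows, of which 1 held none of the patterns and the other only a reversed CCAAT. Of the 3 patterns, *H2-Aa* held the reversed CCAAT alone, 48 bases before the start, and *Ifi30* held none. An X box that departs from the pattern used here would be missed, so the lack of a match does not show that a promoter lacks the box. The reversed hexamer TGACCT stood 238 bases before the start of *H2-Eb1* and 54 bases before that of *H2-DMb1*. Between the WT libraries *H2-Eb1* went from 2 to 112 reads and *H2-DMb1* from 8 to 14. Both promoters held the paired boxes, and any link of the boxes to these reads was not tested. A match is a description of these letters, and binding was not measured here.

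*H2-DMa* and *H2-DMb1* encode the α and β chains of DM, the endosomal peptide exchanger. *H2-DMa* had a value of 68.9 and 117 in WT and of 56.5 and 71.0 in Rxra-KO. Its groups overlapped narrowly, at the lower WT and the upper Rxra-KO library. For *H2-DMa* the log2 fold change was -0.50 ± 0.31 (SE, limma adjusted *p* = 0.650), and it stayed below 0 with each library left out, from -0.87 to -0.12. *H2-DMb1* had 12.9 and 15.7 in WT and 8.28 and 13.4 in Rxra-KO, from 8, 14, 5 and 13 reads. For *H2-DMb1* the log2 fold change was -0.40 ± 0.61 (SE, limma adjusted *p* = 0.935), and it ranged from -0.71 to -0.08 with each library left out.

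Within a library the DM chains kept a near-constant proportion while the I-A chains were far from even. *H2-DMa* took 84.9% of the reads of the DM pair in WT replicate 1 (exact 95% interval 72.4 to 93.3), 88.4% in WT replicate 2 (81.3 to 93.5), 88.1% in Rxra-KO replicate 1 (74.4 to 96.0) and 84.5% in Rxra-KO replicate 2 (75.0 to 91.5). All 4 intervals overlapped. *H2-Aa* took 0.413% (0.0105 to 2.28), 1.55% (1.09 to 2.14), 2.75% (0.571 to 7.83) and 2.07% (1.11 to 3.52) of the reads of the I-A pair in the same order. These intervals overlapped as well, so the proportion of the chains was not distinguishable between libraries in which *H2-Ab1* itself ranged from 106 to 2289 reads. Per kilobase of the longest coding transcript in GENCODE M21, the level of *H2-Ab1* was 150-, 58.4-, 28.3- and 42.4-fold that of *H2-Aa*. How reads were assigned to these genes is not settled by the sources used here, which leaves that imbalance uncertain.

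*Cd74* took 4.74% (2.47 to 8.14) and 4.51% (3.71 to 5.41) of the summed reads of *Cd74* and *H2-Ab1* in WT, and 6.19% (2.53 to 12.3) and 7.39% (5.52 to 9.65) in Rxra-KO. These intervals overlapped within each group, but those of WT replicate 2 and Rxra-KO replicate 2, the deeper libraries, did not. *H2-Eb1* took 0.823% (0.0998 to 2.94) and 4.66% (3.86 to 5.59) of the summed reads of *H2-Eb1* and *H2-Ab1* in WT, and 5.36% (1.99 to 11.3) and 2.38% (1.34 to 3.90) in Rxra-KO. The intervals of the 2 WT libraries did not overlap for this pair. Reads carry no molecular identifiers, so these intervals cover counting error only.

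*Ciita* had few reads, with a value of 6.81 and 17.9 in WT and of 5.27 and 21.4 in Rxra-KO, from 4, 16, 3 and 21 reads. Replicate 2 was the higher library in both groups, and the 2 groups spanned nearly the same range. For *Ciita* the log2 fold change was -0.04 ± 0.64 (SE, limma adjusted *p* = 0.994). Its sign changed with the setting: 0.15 with edgeR, 0.88 without Rxra-KO replicate 1 and -0.95 without Rxra-KO replicate 2. A difference in *Ciita* was not detectable at this depth.

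*Ifi30* encodes GILT, the endosomal thiol reductase that opens disulphide bonds of antigens before they are loaded. Its value was 201 and 266 in WT, against 174 and 342 in Rxra-KO, so the WT libraries lay inside the range of the Rxra-KO libraries. For *Ifi30* the log2 fold change was 0.08 ± 0.25 (SE, limma adjusted *p* = 0.981). It ranged from -0.41 without Rxra-KO replicate 2 to 0.56 without Rxra-KO replicate 1.

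*Cd86* encodes a ligand of CD28 that gives T cells their second signal beside the class II complex. Its value was 53.7 and 68.9 in WT and 127 and 172 in Rxra-KO, from 35, 63, 84 and 173 reads. Both Rxra-KO libraries lay above both WT libraries. The means were 61.3 ± 10.7 over the WT libraries and 150 ± 31.9 over the Rxra-KO libraries (SD, n = 2), a 2.44-fold ratio of means. For *Cd86* the log2 fold change was 1.27 ± 0.29 (SE, limma adjusted *p* = 0.00160). It stayed between 1.05 and 1.49 with each library left out, but the call was lost without WT replicate 1 (limma adjusted *p* = 0.0730) and without Rxra-KO replicate 2 (limma adjusted *p* = 0.201), as well as in limma without a mean-variance trend (adjusted *p* = 0.524).

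**Figure D2:**
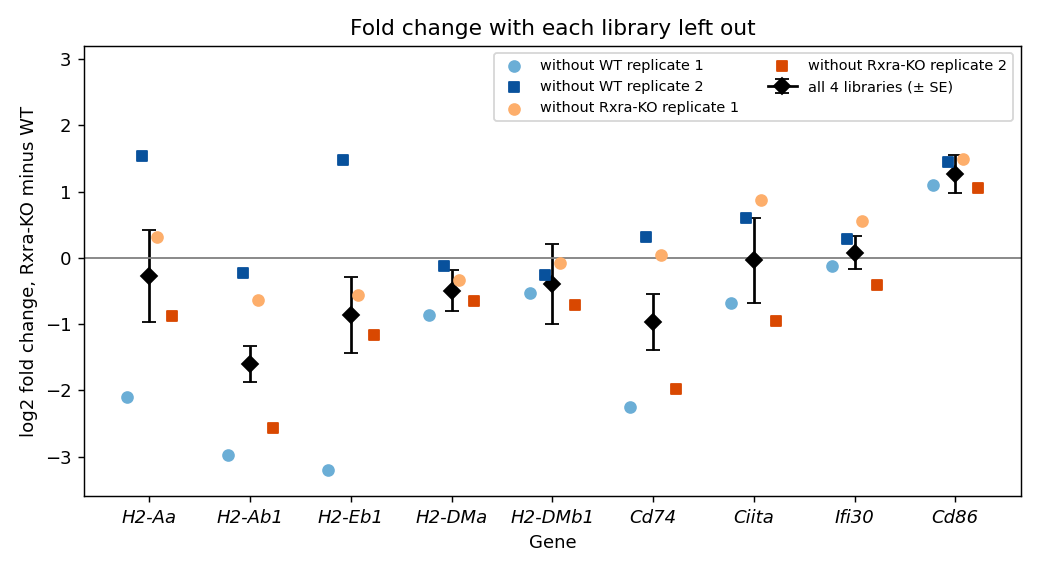
log2 fold change, Rxra-KO minus WT, of each of the 9 genes with all 4 libraries (black diamonds, bars are the standard error of the limma fit) and with each library left out (coloured points). *H2-Ab1*, *H2-DMa*, *H2-DMb1* and *Cd86* keep their side of 0 in all 5 fits, and the other 5 genes cross it.

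The spread between libraries of 1 group was the main feature of the class II chains. All 9 genes were higher in replicate 2 than in replicate 1 in both groups, a pattern that 26.3% of all genes showed. Scaled for depth and without the added 0.5 read, reads in replicate 2 over replicate 1 came to 6.81-fold for *H2-Ab1* in WT (exact 95% interval 5.96 to 7.80) and 3.82-fold in Rxra-KO (3.10 to 4.74). For *Cd74* the ratio was 6.45 in WT (3.54 to 12.9) and 4.62 in Rxra-KO (2.08 to 12.1). In WT that of *H2-Aa*, on 1 read in replicate 1, was 25.8 (4.34 to 1047), and that of *H2-Eb1*, on 2 reads, was 40.1 (10.9 to 335). In Rxra-KO the intervals of *H2-Aa* (0.785 to 15.6) and *H2-Eb1* (0.605 to 5.19) included 1. The other 5 genes had ratios between 1.25 and 2.87 in WT and between 1.27 and 4.62 in Rxra-KO, where *Ciita* rested on 3 reads in replicate 1 (1.38 to 24.2). Among the 3467 genes with a mean value of at least 50, the median absolute log2 gap between replicates was 0.27 in WT and 0.28 in Rxra-KO. *H2-Ab1* had a gap of 2.76 in WT, which *Cbr2* and *Fcrls* alone exceeded, and of 1.92 in Rxra-KO, which 3 genes exceeded. Replicate 2 was also the deeper library, and whether depth has a part in this was not tested.

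As a share of all reads, the 9 genes took 0.0736% in WT replicate 1 (exact 95% interval 0.0671 to 0.0804) and 0.316% in WT replicate 2 (0.304 to 0.327). They took 0.0582% in Rxra-KO replicate 1 (0.0524 to 0.0645) and 0.125% in Rxra-KO replicate 2 (0.119 to 0.132). No 2 of these intervals overlapped, and the WT libraries stood further apart than the 2 group means of 0.195% ± 0.171 and 0.0918% ± 0.0475 (SD, n = 2). *H2-Ab1* supplied most of that spread. Without it, a setting chosen after the values were seen, the shares were 0.0366% and 0.0740% in WT and 0.0413% and 0.0668% in Rxra-KO. In bulk samples, more cells of a type and more RNA per cell cannot be told apart.

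The other genes of the route were taken from 5 lists, of which 45 genes outside the 9 were in the table. Of these, 5 were called higher and 1 was called lower in Rxra-KO, or 13.3%, against 2.29% of all genes. The median log2 fold change of the 45 genes was 0.23. The study reports most of the called genes as higher in the same libraries, and the lists were chosen with that known. These shares are therefore not a test of whether the route is enriched in called genes. Among the 4 further chain genes in the table none was called. *H2-Eb2* had 2.27 and 23.3 in WT against 20.3 and 20.4 in Rxra-KO (log2 fold change 1.26, limma adjusted *p* = 0.449). *H2-Ob*, the β chain of the DM inhibitor DO, had 5.30 and 15.7 against 12.8 and 17.4 (log2 fold change 0.63, limma adjusted *p* = 0.845). For both, WT replicate 1 was the lowest library, and WT replicate 2 did not stand above the Rxra-KO libraries by more than a few reads. Without WT replicate 2, *H2-Eb2* was called higher.

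Of 16 regulators and upstream signalling genes, *Irf1* was called lower and *Irf4* higher. *Irf1*, an interferon-induced activator of the interferon-γ-responsive *Ciita* promoter, had a value of 132 and 340 in WT and of 88.1 and 98.8 in Rxra-KO. Its groups did not overlap, and WT replicate 2 was the highest library, as for the class II chains. For *Irf1* the log2 fold change was -1.18 ± 0.27 (SE, limma adjusted *p* = 0.00188). Leaving out WT replicate 2 brought it to -0.50, with no call. *Irf4* had 18.9 and 21.2 in WT and 62.5 and 58.1 in Rxra-KO (log2 fold change 1.54, limma adjusted *p* = 0.00756), and its call was lost without either Rxra-KO library.

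Of 12 endosomal processing genes, 4 were called higher and none lower. The study reports all of the called genes as higher in the same libraries, and the list was written with that known. The count is therefore not a test against the 1.32% of all genes called higher. *Ctsb*, a lysosomal cysteine protease, stood at 991 and 777 in WT and at 3108 and 2610 in Rxra-KO (log2 fold change 1.70, limma adjusted *p* = 5.39e-11). *Ctsl*, the protease that trims the invariant chain in thymic epithelium, stood at 691 and 761 in WT and at 1220 and 1892 in Rxra-KO (log2 fold change 1.07, limma adjusted *p* = 0.000192), and its call was lost without Rxra-KO replicate 2. The lysosomal membrane gene *Lamp1* had 506 and 525 against 1163 and 1081 (log2 fold change 1.12, limma adjusted *p* = 7.05e-05). *Ap2m1*, a subunit of the clathrin adaptor AP-2, had 58.3 and 58.0 against 132 and 119 (log2 fold change 1.09, limma adjusted *p* = 0.0166), a call that was lost with each library left out. These 4 genes serve lysosomes and endocytosis in general and not class II alone. *Ctss*, the protease that completes invariant chain trimming in antigen-presenting cells, had 4255 and 4394 in WT against 3142 and 3583 in Rxra-KO and was not called (log2 fold change -0.37, limma adjusted *p* = 0.623).

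None of the 10 costimulation and T cell contact genes other than *Cd86* was called, and their median log2 fold change was -0.06. *Cd48*, a ligand of CD2 family receptors, had 204 and 212 in WT and 368 and 267 in Rxra-KO (log2 fold change 0.59, limma adjusted *p* = 0.276). *Vsir*, listed under its older name *4632428N05Rik* and encoding the T cell inhibitor VISTA, had 263 and 233 in WT and 160 and 209 in Rxra-KO (log2 fold change -0.43, limma adjusted *p* = 0.589). *Cd80*, the close relative of *Cd86*, had at most 5 reads in any library, and its level could not be compared at this depth. Of 5 genes for class II surface turnover, *March1* and *March8* were not matched and are not analysed here, and none of the other 3 was called, although *Cd63*, a tetraspanin of late endosomes, was called without WT replicate 1.

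The levels of markers of other cells were read beside these results. The summed value of the 9 class II route genes was 734 and 3248 in WT and 558 and 1308 in Rxra-KO. Markers of B cells, which carry much class II, summed to 111 and 112 in WT and to 145 and 108 in Rxra-KO, with 11 of 12 genes in the table and none called, so that they were level between the WT libraries in which *H2-Ab1* differed 6.81-fold. Markers of dendritic cells summed to 103 and 110 in WT and to 235 and 260 in Rxra-KO. Called higher were 2 of 12, the lectin genes *Cd209a* and *Clec10a*, and most of the rise in the sum lay in these 2 genes. *Cd209a* rose from 22.0 and 14.6 in the WT libraries to 65.5 and 80.0 in the Rxra-KO libraries. For *Clec10a* the rise was from 11.4 and 11.4 to 97.1 and 75.0. The other dendritic cell markers changed in both directions, and none was called. *Cd209a*, which has close paralogs, lost its call without Rxra-KO replicate 2. Neither sum differed between the WT libraries as the class II chains did, but 8 of 12 dendritic cell markers and 6 of 11 B cell markers were higher in WT replicate 2. Among these, *Ccr7* went from 1 to 10 reads and *Zbtb46* from 1 to 8, while *Siglech* and *Xcr1* were lower, all 4 named after their values were seen. The part of such cells in the level of the class II chains was not tested. Markers of SPMs and monocytes summed to 453 and 139 in WT and to 4877 and 6354 in Rxra-KO. Among the 12 genes, 8 were called higher (*Ccr2*, *Irf4*, *Retnla*, *Mrc1*, *Fcrls*, *Clec4b1*, *Cd209d* and *Folr2*), and *Irf4* also stood in the list of regulators above. Those called genes are reported by the study as higher in the same libraries, and this list was written with that known. Their number is therefore no test against the 1.32% of all genes called higher. Within WT the sum of this list was lower in replicate 2, where the class II chains and *Cd86* were higher. Between the groups that sum was higher in Rxra-KO, as *Cd86* was. The part of such cells in the level of *Cd86* was not tested.

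LPM markers summed to 38934 and 41176 in WT and to 20156 and 22221 in Rxra-KO. Most of that sum was *Prg4*, at 28429 and 29683 in WT and at 15129 and 16567 in Rxra-KO. Of the 12, 9 were called lower (*Emr1*, *Icam2*, *Gata6*, *Itgam*, *Selp*, *Ltbp1*, *Prg4*, *Alox15* and *Garnl3*). The study reports *Gata6* and *Icam2* as lower in the same libraries, and this list too was written with that known. The count is therefore not a test against the 0.969% of all genes called lower. Of the 3 not called, *Timd4* was lower (log2 fold change -0.80) and *Csf1r* and *Vsig4* were higher (0.36 and 0.12). Over the 4 libraries the 8 of 11 T and NK cell markers in the table summed to between 85.4 and 123, the 6 of 8 mesothelial markers to between 58.7 and 96.5, and the 8 of 12 mast cell and granulocyte markers to between 131 and 196. In these 3 lists *Cd2* was called higher, on 0 and 0 reads in WT against 11 and 6 in Rxra-KO, and lost its call with each library left out. No marker in the table was at 0 reads in all 4 libraries, and 10 listed markers were not matched and are not analysed here.

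**Figure D3:**
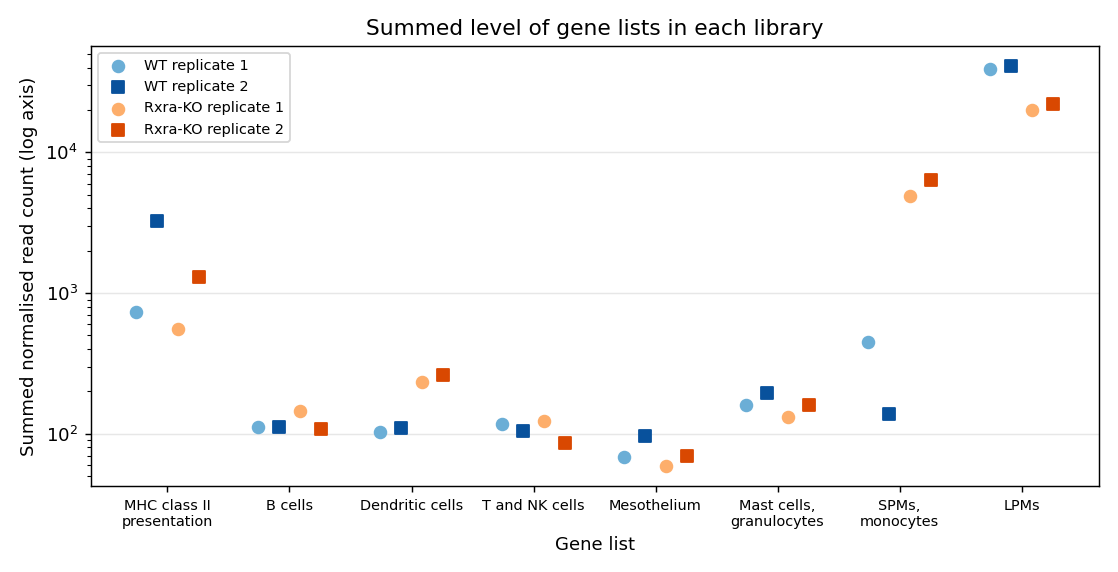
Summed normalised read count (log axis) of the 9 MHC class II route genes and of 7 marker lists, in each of the 4 libraries. The class II sum is highest in WT replicate 2 at 3248, where the B cell sum is 112 and the SPM and monocyte sum is lowest at 139.

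To see which other genes varied over the libraries as the chains did, log2(value + 1) of each gene was centred on its own mean, and its distance to the mean profile of *H2-Aa*, *H2-Ab1*, *H2-Eb1* and *Cd74* was computed over the 4 libraries. That profile was -1.24 and 2.17 in WT and -1.18 and 0.25 in Rxra-KO. Of 3466 genes with a mean value of at least 50, the 8 nearest were *Cfb*, *Psmb8*, *Igtp*, *Car6*, *Cenpf*, *Irf1*, *Slfn2* and *Aagab*, at root mean square distances from 0.784 to 0.875. *Cfb*, complement factor B, had 346 and 997 in WT and 201 and 270 in Rxra-KO. *Psmb8*, an immunoproteasome subunit, had 255 and 604 in WT and 165 and 300 in Rxra-KO. *Igtp*, an interferon-induced GTPase, had 44.7 and 180 in WT and 74.5 and 66.0 in Rxra-KO. All 8 were highest in WT replicate 2, as the profile requires. Of the genes not used for the profile, *Ciita* lay at 0.889, *H2-DMa* at 1.04, *H2-DMb1* at 1.18, *Ifi30* at 1.19 and *Cd86* at 1.58, so that *Cd86* was the least like the class II chains. With 4 libraries these distances are a description.

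**Figure D4:**
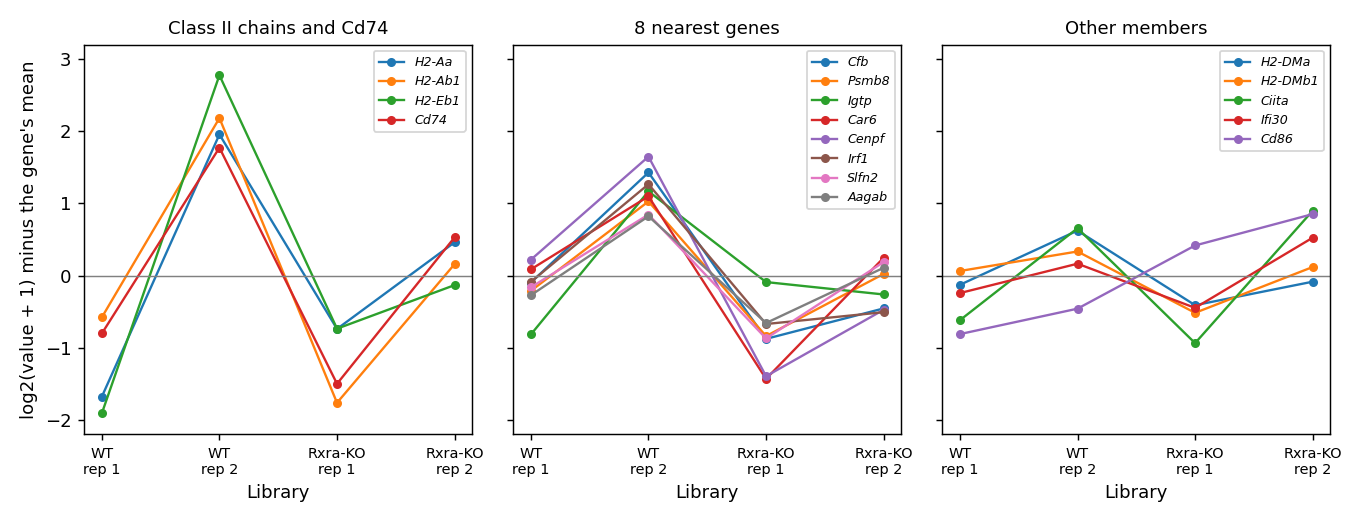
Centred log2(value + 1) over the 4 libraries, with 1 line per gene, for the class II chains and *Cd74* (left), the 8 nearest genes (middle) and the other 5 genes of the class II route (right). The left and middle panels peak in WT replicate 2 by the choice of genes, and *Cd86* on the right is higher in both Rxra-KO libraries.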

How the data were processed

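The authors double-sorted LPMs, amplified their RNA without molecular identifiers (SMART-Seq v4) and sequenced it on a NextSeq-500, with 2 libraries per group. Per the methods, Kallisto (version 0.43.0) gave the read estimates, and limma compared groups on TMM-scaled values. The methods name the human build GRCh38 for these mouse libraries, so the reference and the counting are not settled. The study left out RNA-seq samples that failed to cluster with their group, and these were not analysed here.

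The authors deposited 1 table of normalised read signal with 4 columns. Each value was (reads + 0.5) times a fixed step, so whole reads were recovered from the deposited signal for 100% of values, within a tolerance of 0.01 read. Recovered reads came to 652542 and 947372 in WT and 629030 and 1047021 in Rxra-KO. Replicates are numbered as in the sample titles (the columns count from 2).

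log2(value + 1), which understates the change of low genes, was fitted for all 18364 genes with limma (version 3.58.1, R 4.3.3) with a mean-variance trend and no covariate. Two-sided *p*-values were adjusted over all genes (Benjamini-Hochberg). The filter asked for 2 or more libraries at a value of 1 or more, which removed no gene. An exact permutation test of 2 libraries against 2 cannot go below *p* = 0.333, so each adjusted *p* rests on spread shared across genes (227 prior against 2 residual degrees of freedom). The main fit alone was also run on simulated data, with an outcome that is not given here. Shares of reads carry exact Clopper-Pearson intervals at 95%. Alternatives used edgeR (version 4.0.16), DESeq2 (version 1.42.0) and voom on recovered reads, other scalings, pseudocounts and filters, and each library left out.

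The 9 genes and all lists were chosen with earlier results of these data known. The text names all 9, every called gene of the lists, the 2 most abundant genes of a list where an example was needed, *Rxra*, *Lyz2* and the 8 genes nearest to the class II profile. It also names the genes not called in the SPM and LPM marker lists. *Cd63*, *Cd80*, *Cbr2* and *Fcrls* (as a gene with a wide replicate gap) were named after their values were seen. *Adgre1* and *Vsir* were matched by older symbols. An item of the lists is not reported here.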

Additional observations from a re-analysis of the deposited data

How the results depend on the processing

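Of 144 refits of the log2 fold changes of the 9 genes, 119 kept their direction and their side of the threshold. Another 8 kept the direction and lost the call, 4 gained a call and 13 changed direction. Several settings left these log2 fold changes as they were, so they could not change a direction. They were the filter on the mean value, TMM scaling computed anew and limma without a trend or with robust variance. The replicate number as a block and the dropped fold threshold did so too. The 119 is therefore not a measure of stability. With each library left out in turn, the log2 fold change of *H2-Aa* ranged from -2.09 to 1.54, that of *H2-Eb1* from -3.21 to 1.47, that of *Cd74* from -2.26 to 0.32, that of *Ciita* from -0.95 to 0.88 and that of *Ifi30* from -0.41 to 0.56. Omitting WT replicate 2 made those of *H2-Aa*, *H2-Eb1*, *Cd74* and *Ciita* positive, omitting Rxra-KO replicate 1 those of *H2-Aa*, *Cd74* and *Ciita*, and *Ifi30* became negative without WT replicate 1 or Rxra-KO replicate 2. *Ciita* also became positive at a pseudocount of 5 (0.00033), with edgeR (0.15), DESeq2 (0.10) and voom (0.023). *Cd74* was called at -1.98 without Rxra-KO replicate 2 (limma adjusted *p* = 0.0141) and at -2.26 without WT replicate 1. Over its alternatives the adjusted *p* of *H2-Ab1* ranged from 2.65e-21 to 0.9998, and that of *Cd86* from 0.000224 to 0.524.

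Limma without a mean-variance trend called 0 of all genes (1579 at an unadjusted *p* under 0.05), 0 of the 9 and 0 of the 45 pathway genes, against 421, 2 and 6 with the trend. DESeq2 called 235 genes and edgeR 446, with 1 of the 9 (*Cd86*) by DESeq2 and 3 (*H2-Eb1* added) by edgeR, and robust limma called 1 (*Cd86*). With single libraries left out, from 236 to 377 genes, from 1 to 3 of the 9 and from 3 to 6 pathway genes were called. The fewest genes were called without WT replicate 2, and the 3 pathway genes without Rxra-KO replicate 2 were *Ctsb*, *Irf1* and *Lamp1*. In these fits the lone library of a group is assumed to vary like the other group. The cause of these changes was not tested. The read shares moved by less than 1 SD under other denominators. No gene was removed by the filter, so omitting it gave no separate value.

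Deviations of same-numbered libraries were barely correlated (r = 0.0629 over 10049 genes). A correlation over so many genes cannot show whether some genes share a factor linked to the number, and this was not tested. With the replicate number as a block, 540 genes, 2 of the 9 (*Cd86* and *H2-Ab1*) and 8 of the pathway genes were called. Depth limits *H2-Aa*, *H2-Eb1*, *Ciita* and *H2-DMb1* most, with 1 to 5 reads in their lowest library.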
